A study of Mus musculus with 8 samples.

Results

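The integrated stress response and the stress cytokine Gdf15 were followed in lung endothelial cells (ECs) of neonatal mice through 10 genes of the count table: Gdf15, Atf3, Atf4, Atf5, Ddit3, Ddit4, Trib3, Asns, Chac1 and Sesn2. They were taken by gene symbol from the 54532 genes of the table, and all 10 were among the 15564 genes with enough counts to be tested. The group was proposed with the rise of Gdf15 in hyperoxia in view, so the hyperoxia contrast is a description for these 10 genes and carries no test. All pups were wild-type C57BL/6J mice. The normoxia pups breathed room air (21% O2) and the hyperoxia pups 80% O2 from birth to postnatal day 14, and nursing dams were moved between the chambers daily. Lung suspensions were depleted of CD45-positive leukocytes, and the cells bound by CD31-coated beads were collected as ECs, so cells of other types that bind or stick to the beads are counted with them. Each condition had 4 libraries of bulk RNA, and the labels do not say whether a library came from 1 pup or from several. P-values therefore measure the spread between these libraries.

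The integrated stress response is the shared answer of cells to a lack of amino acids, misfolded protein in the endoplasmic reticulum (ER), double-stranded RNA, lack of heme or mitochondrial stress. Each stress activates a kinase that phosphorylates the translation initiation factor eIF2, which slows protein synthesis in general and raises translation of the ATF4 mRNA, so ATF4 protein can rise without more of its mRNA. ATF4 and its partners of the C/EBP family then switch on genes of amino acid synthesis and uptake, the transcription factor CHOP (Ddit3), and feedback inhibitors. GDF15 is a secreted cytokine induced by ATF4 and CHOP in many stressed cells and also by p53, and Sesn2 is likewise known as a target of both.

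The proximal promoters of these genes were inspected for the core letters of the C/EBP-ATF response element, to which ATF4 binds with a C/EBP partner. RefSeq promoter windows (GRCm38.p6, 250 bases before the transcript start to 50 after) were found for all 10 genes. The letters TGATGNAA, read on both strands, were present in 4 of the 10 genes, namely Asns, Chac1, Atf3 and Trib3. Counted by window, they were in 4 of the 12 windows of these genes and in 3.97% of all 32851 windows. The letters TGACGTCA of the cAMP response element were in none of the windows of these genes and in 1.79% of all windows. These are matches of letters, not measured binding, and a window without them says nothing about the factor. The stretches below are written 5′ to 3′ along the gene's own strand, with the matched letters in capitals. Gdf15 is shown as the gene with the largest difference and no match, and the others because they hold a match and yet differed in direction. The Gdf15 stretch runs from 220 to 21 bases before its transcript start (chr8:70632477-70632676, minus strand), upstream of the listed gene.
Gdf15: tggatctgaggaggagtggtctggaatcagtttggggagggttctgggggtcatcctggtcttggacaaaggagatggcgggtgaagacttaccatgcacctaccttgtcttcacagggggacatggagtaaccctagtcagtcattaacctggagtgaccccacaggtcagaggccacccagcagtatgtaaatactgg
The Chac1 stretch covers the same distances (chr2:119351022-119351221, plus strand), lies upstream of the listed gene and holds the letters in reverse.
Chac1: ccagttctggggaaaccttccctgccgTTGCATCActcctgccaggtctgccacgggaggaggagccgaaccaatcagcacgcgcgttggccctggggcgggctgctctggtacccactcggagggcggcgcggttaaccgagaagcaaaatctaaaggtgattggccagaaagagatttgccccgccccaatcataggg
The Atf3 stretch again covers these distances from one of its starts (chr1:191183354-191183553, minus strand). It lies inside the listed gene but in no annotated exon, and it holds the letters in reverse.
Atf3: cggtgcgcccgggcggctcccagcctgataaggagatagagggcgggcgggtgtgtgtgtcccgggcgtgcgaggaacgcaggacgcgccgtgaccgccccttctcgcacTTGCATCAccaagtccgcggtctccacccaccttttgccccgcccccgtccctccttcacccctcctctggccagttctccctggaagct
For Asns and Trib3 only 30 bases around the match are given. The Asns site (chr6:7693214-7693243, minus strand) ends 5 bases before the RefSeq start, reads forward and lies in an exon of the gene as GENCODE M21 lists it, outside the coding sequence. The Trib3 site (chr2:152344028-152344057, minus strand) begins 4 bases after the RefSeq start, reads in reverse, and has 5 of its bases in a listed exon and none in coding sequence.
Asns: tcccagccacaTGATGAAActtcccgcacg
Trib3: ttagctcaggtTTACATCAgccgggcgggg

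Gdf15 was the member that differed most. Its level was 7.41, 5.92, 6.10 and 5.30 CPM in normoxia libraries 1 to 4, where CPM is the count scaled to the TMM-normalized size of the library. In hyperoxia it was 64.9, 75.4, 61.7 and 77.6 CPM. Every hyperoxia library was far above every normoxia library, and the values rested on 96 to 121 counts per library in normoxia and 1078 to 1398 in hyperoxia. The mean was 6.18 ± 0.886 CPM in normoxia and 69.9 ± 7.76 CPM in hyperoxia (SD, n = 4 each), a log2 fold change of 3.50 with a standard error (SE) of 0.11, or 11.3-fold. It ranked 59 among the 15564 tested genes by log2 fold change. The gene (ENSMUSG00000038508) lies at chr8:70629393-70632456 on the minus strand.

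**Figure D1:**
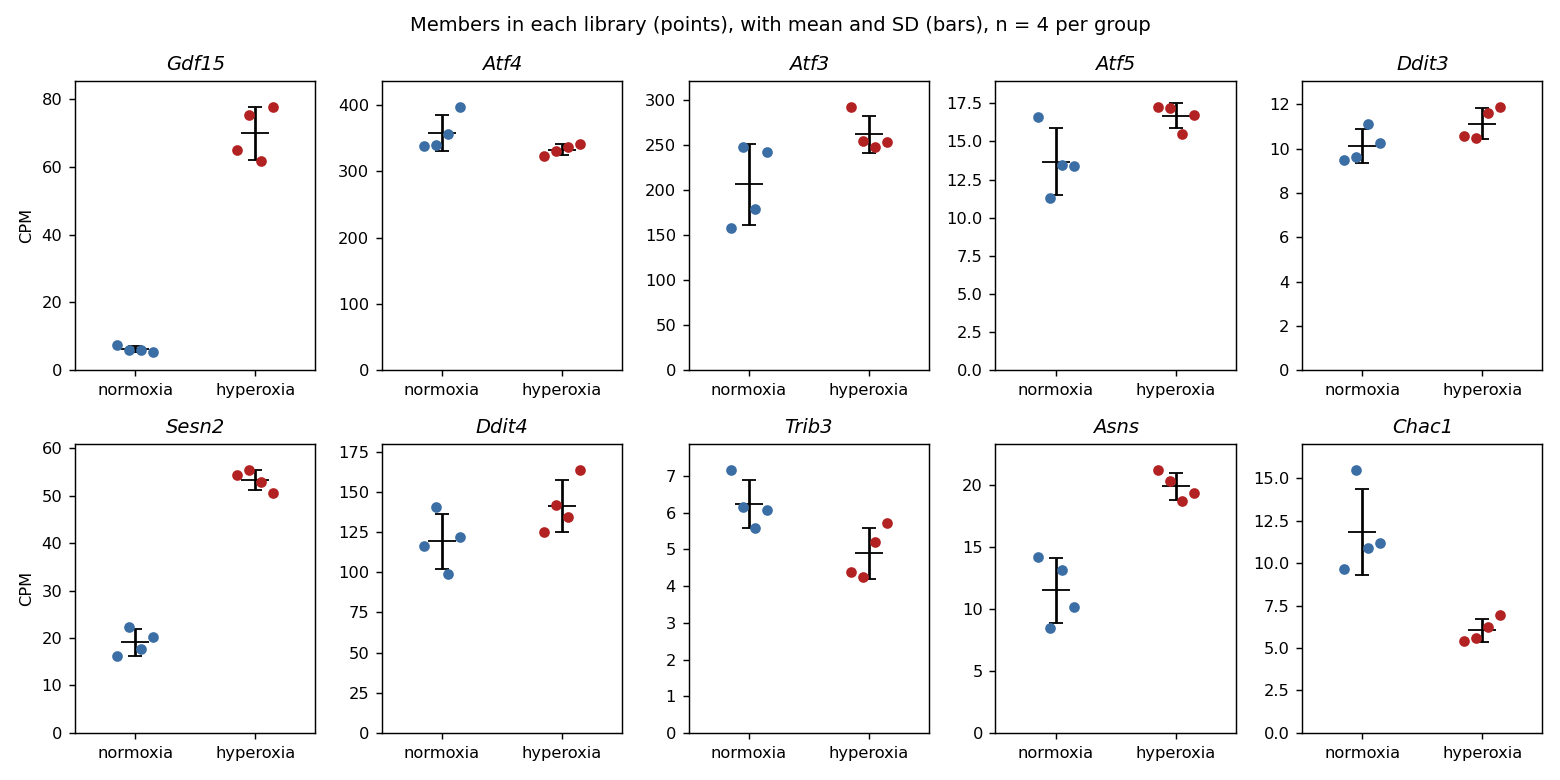
Each panel plots the CPM of a member in every library (blue, normoxia; red, hyperoxia), with the mean and SD of the 4 libraries as black bars; the vertical axes start at 0 and differ between panels. Gdf15, Sesn2 and Asns sit higher in all hyperoxia libraries than in any normoxia library, Chac1 sits lower, and the groups of the other 6 genes overlap.

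The gene for the transcription factor at the centre of the response did not follow Gdf15. Atf4 (chr15:80255184-80257541) was at 339, 340, 356 and 397 CPM in normoxia and at 323, 331, 337 and 341 CPM in hyperoxia. The highest hyperoxia library overlapped the lowest normoxia libraries, and the log2 fold change was -0.10 (SE 0.056). Translation of Atf4 was not measured here. Ddit3, which encodes the pro-apoptotic factor CHOP, was at 9.49, 9.62, 11.1 and 10.3 CPM in normoxia and 10.6, 10.5, 11.6 and 11.9 CPM in hyperoxia. These values also overlapped, with a log2 fold change of 0.14 (SE 0.096). The table lists Ddit3 under 2 gene identifiers. The values are those of ENSMUSG00000025408, since the other had no count in any library. Its exons share 3.97% of their bases with Mars on the opposite strand, and whether the counting used strand is not given in the sources used here.

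The other ATF factors lay between. Atf3, a stress-induced repressor that also answers to many other signals, was at 158, 248, 178 and 242 CPM in normoxia and 292, 255, 247 and 253 CPM in hyperoxia. Normoxia library 2 reached the lowest hyperoxia value and library 4 came near it, while normoxia libraries 1 and 3 were well below, so the difference (log2 fold change 0.34, SE 0.13) came with a wide spread in normoxia. Atf5, a factor that supports cell survival and the mitochondrial stress response and is itself under translational control, was at 16.6, 11.3, 13.5 and 13.4 CPM in normoxia and 17.2, 17.2, 15.5 and 16.8 CPM in hyperoxia. Only normoxia library 1 reached into the hyperoxia range, and the log2 fold change was 0.29 (SE 0.11). Its exons share 4.11% of their bases with Nup62 on the opposite strand, a gene with a higher level.

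Among the genes that restrain growth, Sesn2 stood out. Sesn2, a leucine sensor that inhibits the growth kinase complex mTORC1, was at 16.1, 22.4, 17.7 and 20.1 CPM in normoxia and at 54.4, 55.4, 52.8 and 50.5 CPM in hyperoxia. The hyperoxia libraries lay close together and far above normoxia, with a log2 fold change of 1.48 (SE 0.09), or 2.79-fold, rank 504 of the tested genes. Ddit4, also called REDD1 and likewise an inhibitor of mTORC1, was at 116, 140, 99.0 and 122 CPM in normoxia and 125, 142, 134 and 163 CPM in hyperoxia. Its groups overlapped, and the log2 fold change was 0.24 (SE 0.11). Trib3, a pseudokinase that restrains ATF4 and Akt signaling, was at 7.16, 6.15, 5.59 and 6.08 CPM in normoxia and 4.40, 4.25, 5.21 and 5.71 CPM in hyperoxia. It overlapped only between hyperoxia library 4 and normoxia library 3, with a log2 fold change of -0.35 (SE 0.14).

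The remaining metabolic targets went in opposite directions. Asns, which makes asparagine and is a standard readout of ATF4, was at 14.2, 8.48, 13.1 and 10.2 CPM in normoxia and at 21.2, 20.3, 18.7 and 19.3 CPM in hyperoxia. All hyperoxia libraries were above all normoxia libraries, and the log2 fold change was 0.79 (SE 0.14), or 1.73-fold. Chac1, an enzyme that degrades glutathione and is among the most inducible targets of ATF4 and CHOP, was at 9.67, 15.5, 10.9 and 11.2 CPM in normoxia and at 5.42, 5.61, 6.24 and 6.93 CPM in hyperoxia. All hyperoxia libraries were below all normoxia libraries, and the log2 fold change was -0.97 (SE 0.16), or 0.512 of the normoxia level.

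At an adjusted p under 0.05 (edgeR quasi-likelihood test, Benjamini-Hochberg over 15564 genes), 4 of the 10 genes were past the threshold, Gdf15, Sesn2 and Asns higher and Chac1 lower. The same threshold was passed by 35.6% of all tested genes, 18.5% higher and 17.1% lower in hyperoxia. When the log2 fold change also had to reach 1 in size, 2 genes remained, Gdf15 and Sesn2, both higher. That pair of conditions was met by 5.62% of all tested genes in the higher direction and by 1.36% in the lower. The groups of 3 genes did not overlap with hyperoxia higher, against 17.8% of all tested genes, and those of Chac1 did not overlap with hyperoxia lower, against 17.6%. The median log2 fold change was 0.27 over the 10 genes and -0.004 over all tested genes. The genes were chosen on this contrast, so these shares are given for scale and support nothing. Without normoxia library 2, 5 members were past the threshold in the higher direction, with Atf3 and Ddit4 added.

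The order of the levels per gene length changed between the conditions, with Gdf15 and Sesn2 moving up and Chac1 moving down. On the deposited FPKM scale, which divides counts by gene length and library total, Atf4 was the most abundant member in normoxia at 150.6 ± 11.6 FPKM (SD, n = 4). It was followed by Atf3 at 95.0 ± 20.5 and Ddit4 at 67.4 ± 9.37 FPKM, whose ranges overlapped. The other 7 genes lay far lower, from Chac1 at 7.16 FPKM (range 5.88 to 9.32) through Atf5 at 6.81 ± 1.12, Ddit3 at 5.87 ± 0.444, Sesn2 at 5.44 ± 0.770, Asns at 4.17 ± 0.968 and Gdf15 at 3.31 ± 0.481 down to Trib3 at 2.92 ± 0.312 FPKM. Each of these overlapped its neighbour in the order, so their normoxia order is not resolved. In hyperoxia Atf4 (140.4 ± 3.52 FPKM), Atf3 (121 ± 9.04) and Ddit4 (80.0 ± 9.28) kept the first ranks without overlap between neighbours. Gdf15 came next at 37.5 ± 4.16 FPKM and Sesn2 after it at 15.3 ± 0.624 FPKM, both apart from their neighbours. Atf5 (8.33 ± 0.394 FPKM) was followed by Asns (7.23 ± 0.384) and Ddit3 (6.46 ± 0.416), which overlapped each other, then by Chac1 at 3.68 ± 0.415 and Trib3 at 2.29 ± 0.323 FPKM.

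**Figure D2:**
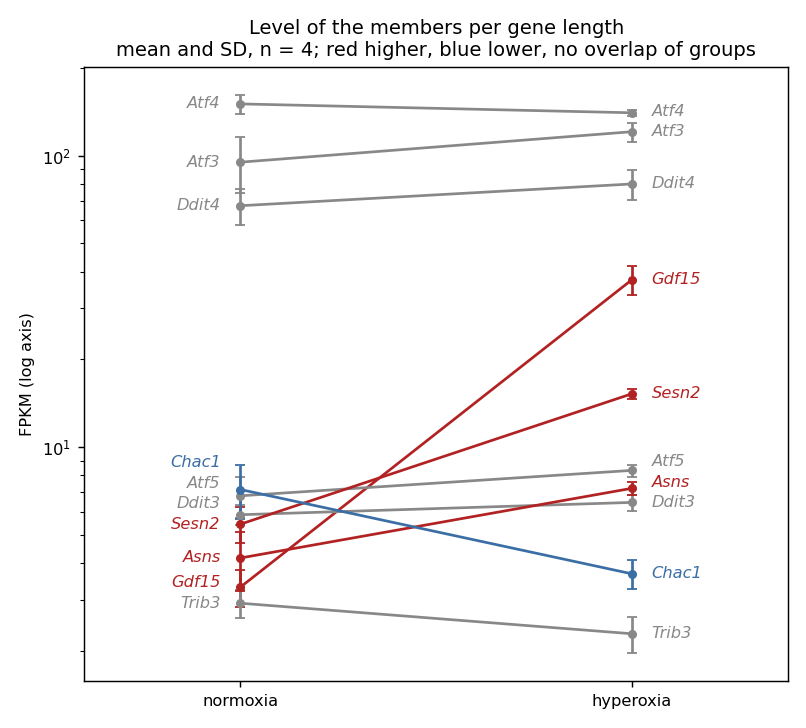
The plot shows the mean FPKM of each member in normoxia and hyperoxia on a log axis, with SD bars (n = 4); red and blue mark genes whose groups did not overlap, higher and lower. Gdf15 goes from 3.31 to 37.5 FPKM, while Atf4 stays at the top with 150.6 and 140.4 FPKM.

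The label of the cells held for the bulk of the RNA, but RNA of other lung cells differed with the condition. The summed level of 14 EC markers, Pecam1 and Cdh5 among them, was 19604 to 20562 CPM in normoxia and 19498 to 20488 CPM in hyperoxia, with 4 of the 14 called higher and 4 lower. All 12 alveolar type 2 markers were higher in hyperoxia (edgeR, adjusted p under 0.05), with sums of 299 to 446 CPM in normoxia and 915 to 2752 CPM in hyperoxia, and none was at 0. All 10 alveolar type 1 markers were higher too, from 89.8 to 115 CPM against 201 to 567 CPM. Mural and myofibroblast markers summed to 42.3 to 70.7 CPM in normoxia and 93.5 to 153 CPM in hyperoxia, with 6 of 7 tested markers higher, and fibroblast markers to 179 to 360 against 243 to 631 CPM, with 4 of 7 higher. In bulk RNA, more cells of a type and more RNA per cell cannot be told apart.

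Hyperoxia library 3 stood apart in this respect. It held 35.3% of the alveolar type 2 marker sum of the other 3 hyperoxia libraries on average, 37.6% of the alveolar type 1 sum and 44.1% of the fibroblast sum. Its Gdf15 level was 85.0% of that of the other 3, Sesn2 98.7%, Asns 92.4% and Chac1 104.2%. Over the 10 members this share ran from 85.0% to 108.8%, and Gdf15, Asns, Atf3 and Atf5 had their lowest hyperoxia value in this library. Without it the log2 fold changes were 3.56 for Gdf15, 1.48 for Sesn2, 0.82 for Asns and -0.98 for Chac1. When the alveolar type 2 marker score of each library was put into the fit as a covariate, the number of called genes fell from 5535 to 204. Gdf15 (log2 fold change 3.02) and Sesn2 (1.59) were still past the threshold, whereas Asns (0.33) and Chac1 (-0.63) were not. The members were chosen on this contrast, so their calls under any score are a description and no test. With the mural and myofibroblast score Gdf15 (2.93) and Sesn2 (1.67) stayed past the threshold, and Asns (0.39) and Chac1 (-0.67) did not. The scores are means of log2 CPM rather than sums. The summed alveolar type 2 and mural markers did not overlap between the groups, and each of these covariates is taken as largely confounded with the condition. The fibroblast sums did overlap, but whether the fibroblast score did was not examined, so that fit may be confounded too. With the fibroblast score Gdf15 (3.25), Sesn2 (1.52) and Chac1 (-0.85) stayed past the threshold, and Asns (0.63) did not.

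**Figure D3:**
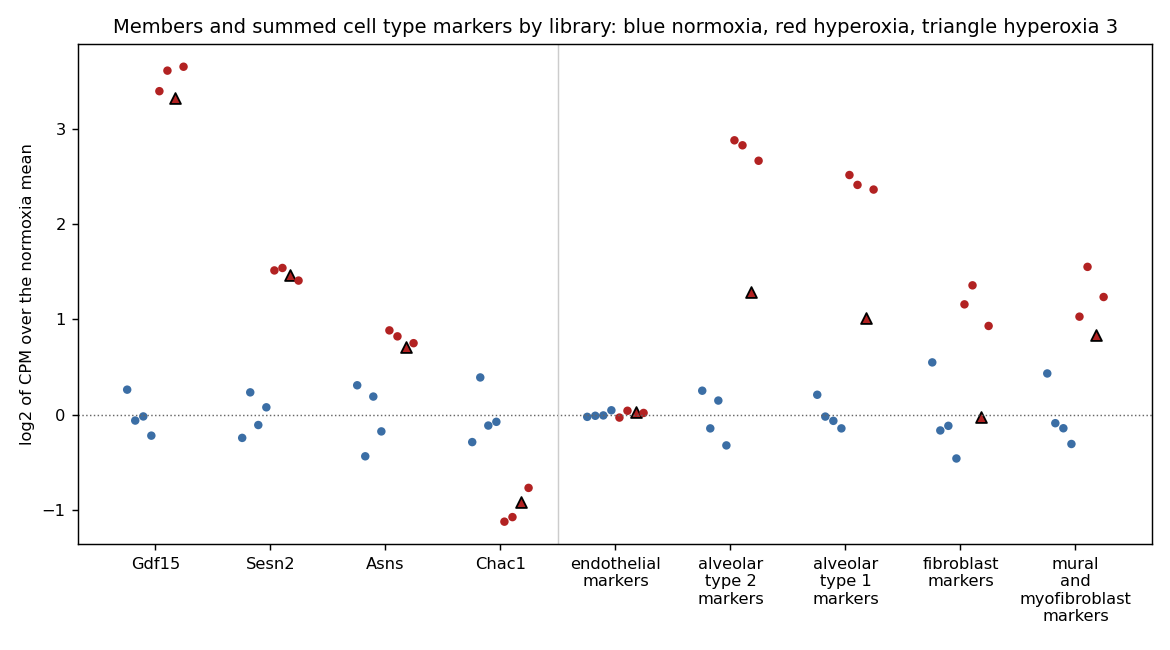
Points give, for each library, the log2 ratio of CPM to the normoxia mean for 4 members (left) and for the summed markers of 5 cell types (right); blue is normoxia, red is hyperoxia and the triangle is hyperoxia library 3. The triangle falls well below the other hyperoxia libraries for alveolar markers, at 35.3% of their mean for type 2, and is at 85.0% for Gdf15, 98.7% for Sesn2, 92.4% for Asns and 104.2% for Chac1.

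The other genes of the pathway were then taken from fixed lists, none chosen for how its genes moved, although earlier results of these data were known. The lists other than that of p53 targets held 111 genes outside the members, of which 103 were tested. In hyperoxia 35 (34.0%) were higher and 12 (11.7%) lower, against 18.5% and 17.1% of all tested genes. Their median log2 fold change was 0.15. Tnfrsf10b (0.80, higher) and Sesn1 (-0.64, lower) are in these counts and in the p53 list as well. With the alveolar type 2 score as a covariate 1 of the 103 was higher and 0 were lower. The 1 gene was Ddit4l, listed as a paralog of Ddit4, so no gene of the other lists kept its call there. With the mural score 3 were higher and 2 lower, and with the fibroblast score 16 and 5. The part of the marker difference in these counts was not tested further. Where a count was 5 or fewer, further genes behind it are named, namely Jdp2, Atf6, Atf2, Phgdh, Mthfd2, Got1, Slc7a1, Slc7a5, Slc1a4, Dars, Gadd45a, Edem1, Ern1, Dnajb9, Creld2, Xbp1 and Rrm2b. These were named after their values were seen.

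The sensors stand at the head of the pathway. Of the 4 eIF2 kinases and 2 genes that relay mitochondrial stress, 1 was higher, 1 lower and 4 not called. That is 16.7% each way, near the 18.5% and 17.1% of all tested genes. Eif2ak4, which encodes the amino acid sensor GCN2, was at 20.7 to 23.9 CPM in normoxia and 27.8 to 34.6 CPM in hyperoxia (log2 fold change 0.54, SE 0.082, edgeR adjusted p = 0.000509). Dele1, which carries the mitochondrial signal to HRI, was at 66.3 to 75.6 CPM in normoxia and 53.5 to 61.4 CPM in hyperoxia (-0.31, SE 0.061, edgeR adjusted p = 0.00252). HRI itself (Eif2ak1, log2 fold change 0.03), the ER sensor PERK (Eif2ak3, 0.04) and the protease Oma1 (-0.20) were not called. Eif2ak2, the double-stranded RNA sensor PKR, was not called either (0.20, edgeR adjusted p = 0.425). Its hyperoxia libraries 1 and 3 were at 74.2 and 65.3 CPM and libraries 2 and 4 at 47.5 and 38.2 CPM.

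Of the 13 genes for eIF2, its exchange factor eIF2B and the eIF2 phosphatase, 0 were higher and 1 (7.69%) lower by edgeR. Among all tested genes 18.5% were higher and 17.1% lower. The median log2 fold change of the list was 0.08. The gene that was lower was Ppp1r15a (GADD34), the stress-induced phosphatase subunit that ends the response and is itself a target of ATF4 and CHOP. It was at 494, 635, 487 and 578 CPM in normoxia and 343, 372, 382 and 429 CPM in hyperoxia, with no overlap (-0.52, SE 0.094, edgeR adjusted p = 0.00148). Its catalytic partner Ppp1ca had a log2 fold change of 0.01.

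Among 12 tested relatives of ATF4 and the C/EBP factors, 4 (33.3%) were higher and 1 (8.33%) was lower. The shares of all tested genes were 18.5% and 17.1%, and the median log2 fold change of the list was 0.22. Cebpa, a lineage factor of myeloid and alveolar type 2 cells, went from 3.59 to 5.33 CPM in normoxia to 17.6, 13.9, 6.53 and 17.3 CPM in hyperoxia (1.68, SE 0.28, edgeR adjusted p = 0.000927). Its low value was in hyperoxia library 3, the hyperoxia library with the lowest alveolar type 2 marker sum. With that marker score as a covariate its log2 fold change was -0.74, and it was not called. The score is taken as largely confounded with the condition, and the part of alveolar type 2 RNA in this difference was not tested. Cebpd, an early-response factor, was at 140, 200, 140 and 154 CPM in normoxia and 206 to 227 CPM in hyperoxia (0.45, SE 0.1, edgeR adjusted p = 0.00567). Jdp2 (0.61) and Atf6 (0.25) were also higher and Atf2 (-0.24) was lower, while the abundant Atf7 was not called (-0.08).

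Amino acid genes are the best known metabolic targets of ATF4. Of 11 tested genes of amino acid and one-carbon synthesis, 5 (45.45%) were higher and 0 lower by edgeR. The shares of all tested genes were 18.5% and 17.1%, and the median log2 fold change of the list was 0.46. Aldh18a1, the first enzyme of proline synthesis, was at 13.1 to 16.3 CPM in normoxia and 21.6 to 24.8 CPM in hyperoxia (0.60, SE 0.089, edgeR adjusted p = 0.000439). Pycr1, a later enzyme of the same route, was higher at a very low level, 0.442 to 0.797 CPM against 1.71, 1.70, 0.859 and 1.61 CPM (1.12, SE 0.31, edgeR adjusted p = 0.0158). The low hyperoxia value was again in library 3. With the alveolar type 2 score as a covariate the log2 fold change was -0.68 and not called, and the cause was not tested. Phgdh (0.86), Got1 (0.64) and Mthfd2 (0.48) were the others called higher, and Shmt2, the most abundant of the list, was not called (0.11).

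Of 8 tested amino acid transporters, 5 (62.5%) were higher and 1 (12.5%) lower, against 18.5% and 17.1% of all tested genes. The median log2 fold change of the list was 0.57. Slc1a5, a carrier of glutamine and other neutral amino acids, was at 29.0, 20.2, 32.9 and 21.5 CPM in normoxia and 49.5, 53.8, 51.5 and 58.8 CPM in hyperoxia (1.04, SE 0.14, edgeR adjusted p = 0.000217). Slc7a11, the cystine carrier that feeds glutathione synthesis, was at 1.47, 1.25, 2.57 and 0.939 CPM in normoxia and 4.80, 2.38, 2.98 and 3.11 CPM in hyperoxia (1.08, SE 0.32, edgeR adjusted p = 0.0228). Its groups overlapped, and it was no longer called without normoxia library 1 (1.06), 2 (0.99) or 4 (0.90) or without hyperoxia library 1 (0.85). Slc38a2, the most abundant transporter of the list and a classic gene of amino acid shortage, was lower instead, at 720 to 893 CPM in normoxia and 567 to 685 CPM in hyperoxia (-0.35, SE 0.079, edgeR adjusted p = 0.00578). Slc7a5 (0.66), Slc7a1 (0.47) and Slc1a4 (0.47) were also higher, and Slc3a2, the heavy chain that pairs with Slc7a5 and Slc7a11, was not called (0.08).

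The 20 cytosolic aminoacyl-tRNA synthetases charge tRNAs, and many are ATF4 targets. Of these, 9 (45%) were higher and 1 (5%), Dars (-0.34), was lower, against 18.5% and 17.1% of all tested genes. The median log2 fold change of the list was 0.18. Sars was at 72.6 to 84.1 CPM in normoxia and 121 to 128 CPM in hyperoxia (0.64, SE 0.052, edgeR adjusted p = 7.34e-06). Wars, a synthetase that interferon also induces, was at 201, 202, 228 and 237 CPM in normoxia and 487, 184, 287 and 145 CPM in hyperoxia, and it was not called (0.35, edgeR adjusted p = 0.401). As for Eif2ak2, hyperoxia libraries 1 and 3 were the high ones.

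Of 10 further tested targets of ATF4 and CHOP, 7 (70%) were higher and 2 (20%) lower, against 18.5% and 17.1% of all tested genes. The median log2 fold change of the list was 0.30. Sqstm1, the autophagy receptor p62, was at 286 to 302 CPM in normoxia and 360 to 406 CPM in hyperoxia (0.39, SE 0.048, edgeR adjusted p = 0.000148). Tnfrsf10b, a death receptor that CHOP and p53 both induce, was at 52.2, 86.6, 77.8 and 97.3 CPM in normoxia and 117 to 151 CPM in hyperoxia (0.80, SE 0.16, edgeR adjusted p = 0.00275). Nupr1, a small stress-induced chromatin protein, was at 0.512 to 2.18 CPM in normoxia and 7.71, 5.95, 2.52 and 4.44 CPM in hyperoxia (1.84, SE 0.41, edgeR adjusted p = 0.00545). Its lowest hyperoxia value was in library 3. With the alveolar type 2 score as a covariate its log2 fold change was -0.73 and not called, and the cause was not tested. Bcl2l11, which encodes the pro-apoptotic protein BIM, was lower, at 80.1, 105, 79.8 and 96.0 CPM in normoxia and 39.5, 40.4, 45.6 and 41.7 CPM in hyperoxia (-1.11, SE 0.092, edgeR adjusted p = 8.75e-06). Gadd45a was the other gene called lower (-0.46).

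**Figure D4:**
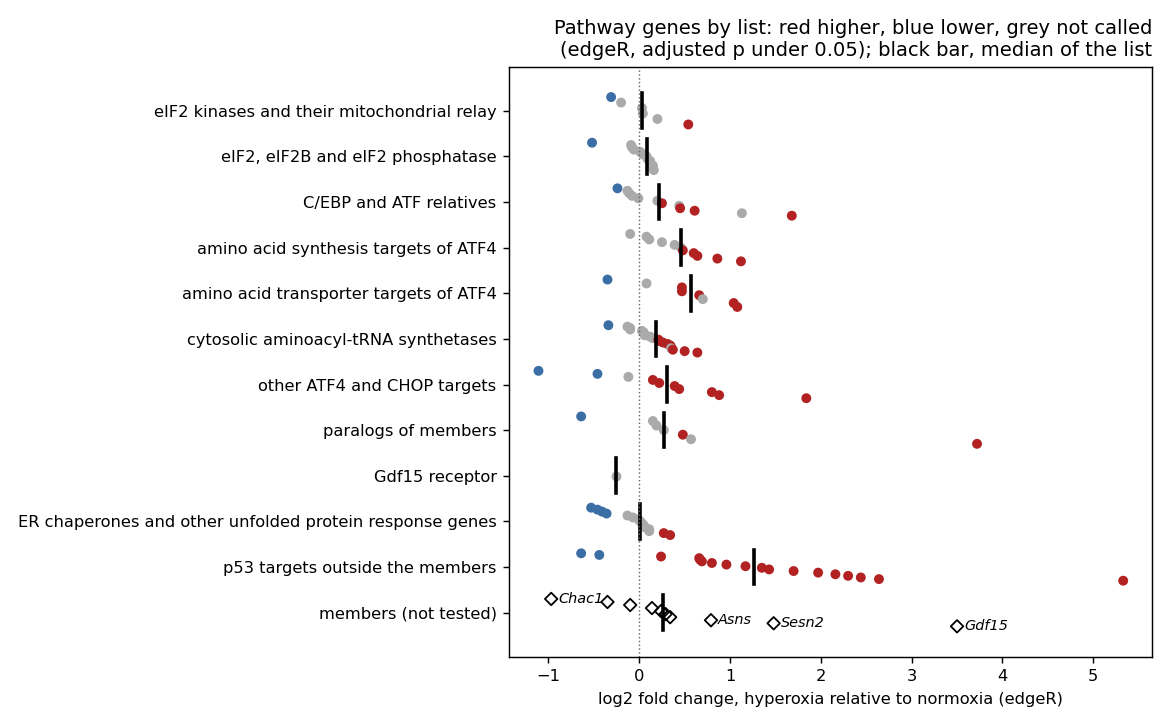
Each point is a tested gene at its log2 fold change (horizontal axis, hyperoxia relative to normoxia), in rows by list; red and blue mark genes past an adjusted p of 0.05 in either direction, grey marks the rest, open diamonds mark the 10 members, which carry no test, and black bars are medians. Amino acid synthesis (median 0.46) and transport (0.57) lie to the right of the eIF2 genes (0.08) and the ER genes (0.01), and the p53 targets (1.26) lie farthest to the right.

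The paralogs of the members did not simply mirror them. Sesn1 was lower, at 36.4, 33.7, 36.5 and 30.4 CPM in normoxia and 20.7, 21.5, 24.2 and 21.5 CPM in hyperoxia (-0.64, SE 0.077, edgeR adjusted p = 0.000114), whereas Sesn2 was higher, and Sesn3 was not called (0.19). Ddit4l, a relative of Ddit4 with the same action on mTORC1, was at 0.490, 0.285, 0.839 and 0.773 CPM in normoxia and 8.11, 8.04, 6.53 and 9.26 CPM in hyperoxia (3.72, SE 0.26, edgeR adjusted p = 2.59e-06). Trib2 was at 242 to 266 CPM in normoxia and 349 to 368 CPM in hyperoxia (0.48, SE 0.046, edgeR adjusted p = 2.4e-05), and Trib1 was not called (0.15). Chac2 (0.57) and Asnsd1 (0.27) were not called.

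Of the receptor genes of Gdf15, only the co-receptor was detected. Gfral, the brainstem receptor of GDF15, had 0 counts in all 8 libraries, which allows up to 3 counts per library from counting error alone. Its co-receptor Ret was at 4.84 to 6.91 CPM in normoxia and 4.24 to 5.78 CPM in hyperoxia without being called (-0.26, edgeR adjusted p = 0.258).

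The ER branch of the stress response was also listed. Of 15 ER chaperones and other genes of the unfolded protein response, 2 (13.3%) were higher and 4 (26.7%) lower, against 18.5% and 17.1% of all tested genes, and the median log2 fold change was 0.01. Hspa5, the master ER chaperone BiP, was at 672, 623, 633 and 642 CPM in normoxia and 510, 501, 516 and 478 CPM in hyperoxia (-0.36, SE 0.045, edgeR adjusted p = 0.000144). Dnajb9 (-0.53), Xbp1 (-0.46) and Creld2 (-0.41) were also lower, Edem1 (0.34) and Ern1 (0.27) were higher, and the abundant chaperone Calr was not called (0.01).

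The p53 targets outside the members were listed because Gdf15 and Sesn2 belong to both programs. All 18 were called, 16 (88.9%) higher and 2 (11.1%) lower, against 18.5% and 17.1% of all tested genes. Their median log2 fold change was 1.26. By at least 1 on the log2 scale 10 were higher, against 5.62% of all tested genes. The rise of p53 targets in these data was known when the list was written, so the count is no independent evidence of its direction. The list is also a selection. Gadd45a, called lower (-0.46), was placed only with the targets of ATF4 and CHOP and is not in this count. Cdkn1a, the cell cycle inhibitor p21, was at 144, 177, 151 and 199 CPM in normoxia and 900, 963, 833 and 941 CPM in hyperoxia (2.44, SE 0.1, edgeR adjusted p = 8.44e-08). Eda2r, a receptor of the tumor necrosis factor family, was at 0.919 to 2.38 CPM in normoxia and 67.1 to 87.2 CPM in hyperoxia (5.33, SE 0.18, edgeR adjusted p = 2.84e-08). Zmat3, an RNA-binding protein, was at 21.5 to 24.1 CPM in normoxia and 125 to 152 CPM in hyperoxia (2.64, SE 0.071, edgeR adjusted p = 1.47e-08). Btg2, an antiproliferative gene, was at 134, 184, 143 and 138 CPM in normoxia and 221 to 264 CPM in hyperoxia (0.69, SE 0.097, edgeR adjusted p = 0.0003). Sesn1 and Rrm2b (-0.44) were the 2 lower. Btg2, Tnfrsf10b and Sesn1 were no longer called with the alveolar type 2 score (0.47, 1.09 and -0.48) or the mural score (0.59, 1.33 and -0.65). Cdkn1a, Eda2r and Zmat3 kept their calls under the marker scores. The other genes of the list were not followed under these scores.

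Genes outside the members were ranked by how like that of Gdf15 their pattern was. Likeness was the root mean square difference in log2 CPM over the 8 libraries, each gene centred on its normoxia mean. Only protein-coding genes outside the members with a mean of at least 5 CPM over these libraries were ranked. Ddit4l, at a mean of 0.597 CPM in normoxia and 7.985 CPM in hyperoxia, fell short of this level. The nearest were Ccdc184 (0.208), Gpnmb (0.250), Cpt1c (0.313), Cep170b (0.313) and Hapln1 (0.325). Of these, only Hapln1 was above 5 CPM in normoxia, so the others passed the filter through their hyperoxia level. Ccdc184 was at 3.92, 3.02, 4.64 and 3.92 CPM in normoxia and 38.5, 41.5, 39.2 and 43.3 CPM in hyperoxia. Hapln1, a link protein of the extracellular matrix, was the most abundant, at 11.0 to 18.2 CPM in normoxia and 109 to 132 CPM in hyperoxia. Gpnmb, a membrane glycoprotein of lysosomes, was at 1.47 to 2.01 CPM in normoxia and 17.2 to 23.0 CPM in hyperoxia. Cpt1c, a brain-type carnitine palmitoyltransferase, was at 1.59 to 2.54 and 18.4 to 23.0 CPM, and Cep170b at 1.05 to 2.05 and 12.1 to 23.8 CPM. Among the members Sesn2 was the nearest at 1.432, followed by Asns at 1.894, and Chac1 was the farthest at 3.135. With 8 libraries in 2 groups, this likeness mostly reflects a similar size of difference.

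**Figure D5:**
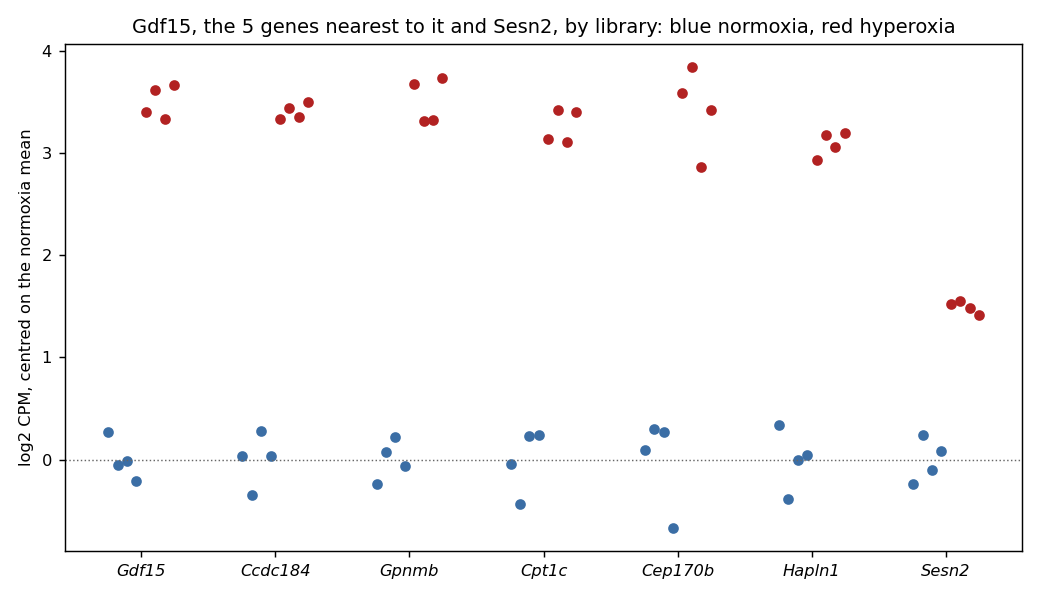
Points give log2 CPM of each library minus the normoxia mean of the gene (blue for normoxia, red for hyperoxia). Shown are Gdf15, the 5 genes outside the members nearest to it, and Sesn2. The hyperoxia points of Ccdc184, Gpnmb, Cpt1c, Cep170b and Hapln1 lie near those of Gdf15, and those of Sesn2, the nearest member at a distance of 1.432, lie lower.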

How the data were processed

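Bulk RNA-seq counts of 8 libraries were analysed, 4 per group by the sample labels, with totals of 16098086 to 18300730. Gene counts were deposited by the authors as whole numbers. Their processing notes name HISAT2 2.0.5, featureCounts 1.5.0-p3 and mm10, and give no strand setting. The authors also deposited FPKM, which equalled count over gene length and library total times a constant of 0.974 to 1.02 per library. Counts were fitted in edgeR 4.0.16 by quasi-likelihood (R 4.3.3; TMM, filterByExpr, group as the only term) and adjusted by Benjamini-Hochberg over 15564 genes. Standard errors follow from the F statistic. Alternatives included DESeq2 1.42.0, limma 3.58.1 on voom weights and on log2(FPKM + 1) or log2(FPKM + 0.1), other scalings and filters, a replicate block, leaving out each library, and marker scores (mean log2 CPM) as covariates. The script was tested on simulated counts.

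The members and all gene lists were chosen with earlier results of these data known. All members were named; of each pathway list all genes if 7 or fewer, otherwise the 2 most abundant and up to 3 past both thresholds with the largest difference; and the 5 genes most like Gdf15. Coordinates are those of the files (GRCm38), which for all 10 members match GENCODE M21. Marker lists for airway epithelial, mesothelial, macrophage and monocyte, neutrophil, lymphocyte, and platelet and erythroid cells were also summed. None of 5 tested neutrophil and 6 tested lymphocyte markers was called, and the other 4 lists had 1 marker higher each and 0, 0, 1 and 2 lower.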

Additional observations from a re-analysis of the deposited data

Results flagged for a closer look

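In 4 of 96 groups of 4 libraries tested with Dixon's ratio, 1 library lay far from the other 3. Chance flags about 1 in 20 groups, or 4.8 here. Atf3 in hyperoxia library 1 was at 292 CPM against 247 to 255 CPM in the others (ratio 0.839). Shmt2 in hyperoxia library 4 was at 36.6 CPM against 41.8 to 42.7 CPM (0.851). Pycr1 in hyperoxia library 3 was at 0.859 CPM against 1.61 to 1.71 CPM (0.878). Btg2 in normoxia library 2 was at 184 CPM against 134 to 143 CPM (0.831).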

How the results depend on the processing

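The numbers of genes called were compared over 20 alternatives. Leaving out each library gave 4526 to 5445 called genes, 3 to 5 members higher, 1 to 1 lower, 31 to 35 other pathway genes higher and 11 to 13 lower. With no low-count filter 5 members were called higher, Atf3 and Ddit4 in addition; the same 5 were called without normoxia library 2. With limma on log2(FPKM + 1) 2 members were lower, Trib3 in addition. DESeq2 called 4 members higher, with Atf3, and limma-voom 4, with Atf5. Atf5 was called without normoxia library 1 and Atf3 without normoxia library 4. With the alveolar type 2, fibroblast and mural scores as covariates the called genes numbered 204, 2316 and 557, and other pathway genes higher 1, 16 and 3 and lower 0, 5 and 2. Members higher were 2 under each score, and members lower 0 with the alveolar type 2 or mural score.

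The replicate block changed no call of a member, with 4792 genes called, 34 other pathway genes higher and 12 lower. The deviations of same-numbered libraries were at most weakly correlated (r of 0.119, 0.036, -0.125 and -0.14). Pair 1 lay just above its values with other numbers (-0.247 to 0.107). Pairs 3 (-0.119 to 0.237) and 4 (-0.139 to 0.279) lay just below theirs. The labels give only the number, and these values cannot show whether more is shared.

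Some differences changed sign, those of the called genes Cebpa, Pycr1, Nupr1 and Slc38a2 among them. Cebpa, Pycr1, Nupr1 and Slc38a2 were not called under any marker score. With the alveolar type 2 score the log2 fold changes were -0.03 for Eif2ak1, -0.15 for Eif2ak3, 0.21 for Oma1, -0.07 for Ppp1ca, -0.74 for Cebpa, -0.68 for Pycr1, 0.04 for Slc38a2, -0.73 for Nupr1, -0.92 for Chac2, -0.04 for Asnsd1, 0.04 for Atf4 and -0.11 for Atf5. With the mural score they were -0.01 for Eif2ak3, -0.03 for Ppp1ca, -0.64 for Chac2, 0.05 for Atf4 and -0.12 for Atf5, and with the fibroblast score -0.08 for Chac2. With library totals Ppp1ca was at -0.01 and Calr at -0.02. The causes were not tested. Leaving out each library gave -0.00 to 0.10 for Eif2ak3, -0.04 to 0.04 for Ppp1ca, -0.08 to 0.56 for Wars and -0.03 to 0.05 for Calr. Without a library, Sesn3 (0.24) and Trib1 (0.24, both without normoxia library 2) and Chac2 (0.78, without normoxia library 1) were called. Among the named pathway genes Slc7a11 alone lost its call, and the counts above show that genes not named here lost theirs too. With log2(FPKM + 1) Slc7a11 was not called either (0.15), a scale that understates low genes.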
